A study of Rattus norvegicus with 4 samples.

Results

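A set of 10 secreted factors of the bone morphogenetic protein (BMP), growth differentiation factor (GDF) and activin families were followed by RNA sequencing in cultured rat cells labelled as tendon stem/progenitor cells (TSPCs). They comprised the ligand genes Bmp2, Bmp4, Bmp6, Gdf5, Gdf6, Gdf10 and Gdf15, the activin beta subunit genes Inhba and Inhbb, and Fst, which encodes the activin-binding protein follistatin. Members were taken by symbol from a deposited table of 32623 genes, in which each symbol had 1 row. The 4 libraries form 2 groups of 2. Control cells received DMSO, a solvent, and the other group received U0126, a small molecule that inhibits MEK, the kinase directly upstream of ERK. Both groups are labelled rat tendon TSPCs. The labels leave out the strain, age and sex of the animals, the dose and the exposure time. They also do not say whether replicates came from separate animals or cultures, and a p-value here reflects the spread among 4 libraries that may be technical.

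BMPs, GDFs and activins are dimeric proteins of the TGF-beta superfamily. They are made as precursors that proprotein convertases cut, and they signal through pairs of type I and type II receptor kinases to Smad transcription factors. BMP-type ligands act mainly through Smad1, Smad5 and Smad9, and activins through Smad2 and Smad3, while secreted antagonists such as follistatin, noggin and gremlin bind the ligands before they reach a receptor. In the skeleton, BMP2, BMP4 and BMP6 are known for inducing cartilage and bone, and GDF5 and GDF6 for their part in joint and tendon formation.

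For 6 of the 10 genes a RefSeq promoter window was at hand. There was none for Bmp2, Gdf5, Gdf6 and Fst, of which Gdf6 and Fst rose with U0126. The available windows of 1 gene that fell and 3 that rose are shown beside each other. Each sequence holds the 250 bases before an annotated RefSeq start on assembly GRCr8, written in the direction of transcription, and capitals mark every match to one of 5 short motifs on either strand. The site of AP-1, the Fos and Jun dimer that lies downstream of ERK, was searched as TGANTCA. A site like that of CREB, the cAMP-responsive factor, was searched as TGANGTCA. A long form of the site of ETS factors, several of which ERK phosphorylates, was searched as CCGGAAG. The box bound by Sp1, in which neighbouring matches can overlap, was searched as GGGCGG, and the TATA box of core promoters as TATAAA. These windows lie at chr17:53804509-53804758 (Inhba, minus strand), chr13:33089374-33089623 (Inhbb, minus strand), chr16:9243262-9243511 (Gdf10, plus strand) and chr17:26675262-26675511 (Bmp6, minus strand). The start used for Inhba, Gdf10 and Bmp6 lies inside the span that RefSeq gives the gene, so part of each window is within the gene.
Inhba: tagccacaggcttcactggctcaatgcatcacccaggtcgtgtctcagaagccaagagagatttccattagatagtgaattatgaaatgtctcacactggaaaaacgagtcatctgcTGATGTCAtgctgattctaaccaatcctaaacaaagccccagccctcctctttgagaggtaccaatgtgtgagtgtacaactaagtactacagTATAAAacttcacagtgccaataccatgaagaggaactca
Inhbb: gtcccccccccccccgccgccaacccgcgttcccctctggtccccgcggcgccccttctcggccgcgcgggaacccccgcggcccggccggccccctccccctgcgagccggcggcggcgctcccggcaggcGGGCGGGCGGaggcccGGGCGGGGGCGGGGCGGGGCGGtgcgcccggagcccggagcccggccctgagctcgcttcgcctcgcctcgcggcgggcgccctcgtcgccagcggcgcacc
Gdf10: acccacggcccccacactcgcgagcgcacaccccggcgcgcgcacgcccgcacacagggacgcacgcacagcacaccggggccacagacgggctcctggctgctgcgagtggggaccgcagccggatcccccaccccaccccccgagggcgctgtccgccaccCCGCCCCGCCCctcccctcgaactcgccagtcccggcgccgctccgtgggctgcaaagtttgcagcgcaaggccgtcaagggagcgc
Bmp6: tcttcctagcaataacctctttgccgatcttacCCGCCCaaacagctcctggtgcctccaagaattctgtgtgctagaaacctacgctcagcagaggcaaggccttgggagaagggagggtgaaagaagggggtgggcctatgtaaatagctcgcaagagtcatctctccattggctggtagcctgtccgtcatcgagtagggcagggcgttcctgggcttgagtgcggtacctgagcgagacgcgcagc

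The windows differ in composition. GC content was 43.6% for Inhba, 56.4% for Bmp6, 76% for Gdf10 and 86.8% for Inhbb, against a median of 51.2% over all 33469 windows. The Inhba window held 1 CREB-like match, TGATGTCA, from base -133 to base -126 counted back from the annotated start, and 1 TATA match from base -40 to base -35. The other 3 windows held Sp1-type GC boxes, namely 6 in Inhbb, 2 in Gdf10 and 1 in Bmp6. The windows that are not shown belong to members that did not pass. The Bmp4 window had a GC content of 66.4% and 3 GC boxes. Gdf15 had 2 windows, of which 1 held 5 GC boxes and a TATA match and the other none of the 5 motifs. GC boxes and TATA matches thus occurred both in genes that changed and in genes that did not pass. None of the 7 windows held the AP-1 or ETS letters in the form searched. The shorter GGAA, a part of the ETS letters, was not searched. It occurs in the Inhba and Inhbb windows, among others. Over all windows, 8.88% held the CREB-like letters, 12.93% TATA, 30.47% a GC box, 6.34% AP-1 and 7.27% ETS. The motifs were chosen with the sequences in view, and a match describes letters only.

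Libraries held between 36888913 and 42785190 counts. Over genes, the log2 difference between replicates had an SD of 0.39 in the control pair and 0.51 in the U0126 pair. The mitochondrial share of counts was 2.98% to 3.48% for control and 4.82% to 5.64% for U0126. All 10 tendon and fibroblast markers listed for the label check had counts, 9 of them at 1 CPM (counts scaled to library size with TMM factors) or more in every library, while Tnmd, a marker of mature tendon cells named after its values were seen, was too low to test. Among markers of other cell types, the summed level of 6 skeletal muscle genes was 202 to 223 CPM in the controls and 84 to 125.8 CPM with U0126, with Pax7 at 0. That of 6 chondrocyte genes was 1815 to 2048 CPM and 706 to 915 CPM, with Col9a1 at 0. Single genes, named after their values were seen, made up most of these sums. Acta1 was at 189 and 214 CPM in the controls and 80.7 and 122 CPM with U0126. Acan was at 1798 and 2032 CPM in the controls and 686 and 897 CPM with U0126. Of the tested markers, 5 of 9 tendon and fibroblast genes rose (Scx, Bgn, Fmod, Dcn and Col3a1) and 1 fell (Tnc, 2.91-fold), and 4 of 4 muscle genes fell. Of 4 chondrocyte genes tested, 2 rose and 1 fell. Col2a1 rose 15.6-fold, from a mean of 0.168 to 2.67 CPM, Matn3 rose 5.16-fold, from 0.88 to 4.54 CPM, and Acan fell 2.42-fold. Of 3 osteoblast genes tested, Ibsp rose 2.22-fold and Runx2 fell 2.20-fold, of 4 leukocyte genes Adgre1 fell, and of 2 epithelial genes Krt18, at 0 in both controls, was called higher; these genes too were named after their values were seen. The summed level of 6 osteoblast genes was 754 to 993 CPM and 596 to 1322 CPM, and that of 6 adipocyte genes was 11.5 to 13.1 CPM and 12.3 to 18.5 CPM, with Lep at 0. Most of the osteoblast sum was Spp1, at 978 and 740 CPM in the controls and 1305 and 579 CPM with U0126. The leukocyte and endothelial lists, each with 5 of 6 genes found by symbol, and the epithelial list summed to at most 14.1 CPM in any library, with Ptprc, Cdh5, Emcn, Epcam, Cdh1, Krt5 and Krt14 at 0. The part that these differences have in the results below was not tested. In bulk RNA, fewer cells of a type and less RNA per cell cannot be told apart.

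The comparison asks which of these secreted factors change at the transcript level with exposure to U0126. The data used here hold no measure of MEK or ERK activity. Of 9 members tested, 5 were higher with U0126 (Gdf10, Gdf6, Inhbb, Bmp6 and Fst), 1 was lower (Inhba), and 3 did not pass (Bmp2, Bmp4 and Gdf15). A gene was called where its Benjamini-Hochberg adjusted p, from edgeR's quasi-likelihood F test over 14023 genes, was under 0.05. By this rule 19.9% of all tested genes were called, 8.41% as higher and 11.5% as lower. The median log2 fold change was 0.72 over the 9 members and 0.02 over all tested genes. In 7 of the 9 both U0126 libraries lay on one side of both controls, which was so for 62.8% of tested genes. Gdf5 was too low to test.

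**Figure D1:**
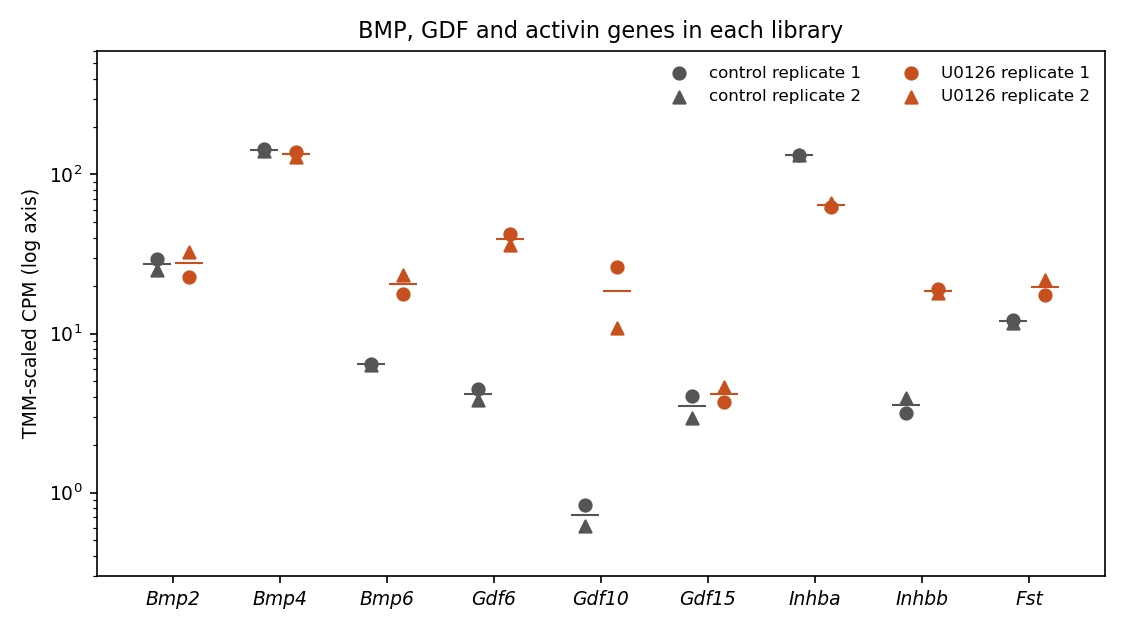
TMM-scaled CPM (log axis) of the 9 tested members in each library; circles are replicate 1, triangles replicate 2, and short lines the group means (n = 2 libraries a group). Gdf10, Gdf6, Inhbb, Bmp6 and Fst stand higher in both U0126 libraries and Inhba lower, while Bmp2 and Gdf15 overlap between groups; Gdf5, at 0 counts with U0126, cannot be drawn on a log axis.

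Gdf10, also known as BMP3B, an atypical member of the BMP3 subgroup, had the largest fitted change among the tested members. It was at 0.832 and 0.62 CPM in the controls and at 26 and 10.9 CPM in U0126 replicates 1 and 2. Both controls were under 1 CPM, and the U0126 libraries stood far above them but differed from each other. The fitted log2 fold change was 4.67 ± 0.47 SE (edgeR adjusted p = 9.51e-04), which placed it 21st by size among the 1180 genes called higher. Leaving out U0126 replicate 1 lowered the log2 fold change to 3.91, and leaving out U0126 replicate 2 raised it to 5.16. Gdf10 lies on chromosome 16 from 10250404 to 10263150 on the plus strand (rn6).

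Gdf6, also called BMP13, a joint and tendon morphogen, showed a change that both replicates shared closely. It stood at 4.49 and 3.81 CPM in the controls and at 42.3 and 35.9 CPM with U0126. Its log2 fold change was 3.24 ± 0.15 SE, a 9.42-fold rise (edgeR adjusted p = 1.07e-04), the smallest adjusted p of the 9 tested members. The gene lies on chromosome 5 from 23056347 to 23074599 on the plus strand.

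Gdf5, its closest relative in the set, was near the limit of detection. The controls held 6 and 4 counts and both U0126 libraries 0. With a floor of 3 counts in place of 0 over the U0126 group, the level was 2.97-fold lower. The floor covers counting error of the U0126 libraries only. The error of the 10 control counts is left out, so this fold is not a lower limit. Gdf5 was not detected with U0126 at this depth.

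Bmp6, a BMP ligand that also controls iron balance in the liver, rose 3.20-fold. It was at 6.4 and 6.36 CPM in the controls and at 17.7 and 23.3 CPM with U0126 (log2 fold change 1.68 ± 0.17 SE, edgeR adjusted p = 9.80e-04). The gene spans 26955142 to 27112820 on the minus strand of chromosome 17.

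The most abundant ligand of the set, Bmp4, did not pass. It was at 144 and 140.1 CPM in the controls and at 139 and 128 CPM with U0126 (log2 fold change -0.09 ± 0.09 SE, edgeR adjusted p = 0.541). Both U0126 values lay below both controls, and the fitted change was smaller than its SE.

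Bmp2, the related bone-inducing ligand, was at 29.3 and 25.2 CPM in the controls and at 22.7 and 32.7 CPM with U0126, so the groups overlapped, and the 2 U0126 libraries marked the lowest and highest values. Its log2 fold change was 0.02 ± 0.18 SE (edgeR adjusted p = 0.944). The sign changed with library totals alone (-0.030), without control replicate 2 (-0.079) and without U0126 replicate 2 (-0.27).

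Gdf15, a distant member known as a stress-induced circulating factor, was at 4.06 and 2.94 CPM in the controls and at 3.69 and 4.61 CPM with U0126. The groups overlapped, and the log2 fold change of 0.25 ± 0.25 SE did not pass (edgeR adjusted p = 0.528). Its known receptor gene, Gfral, named after its values were seen, had 0 counts in all 4 libraries.

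**Figure D2:**
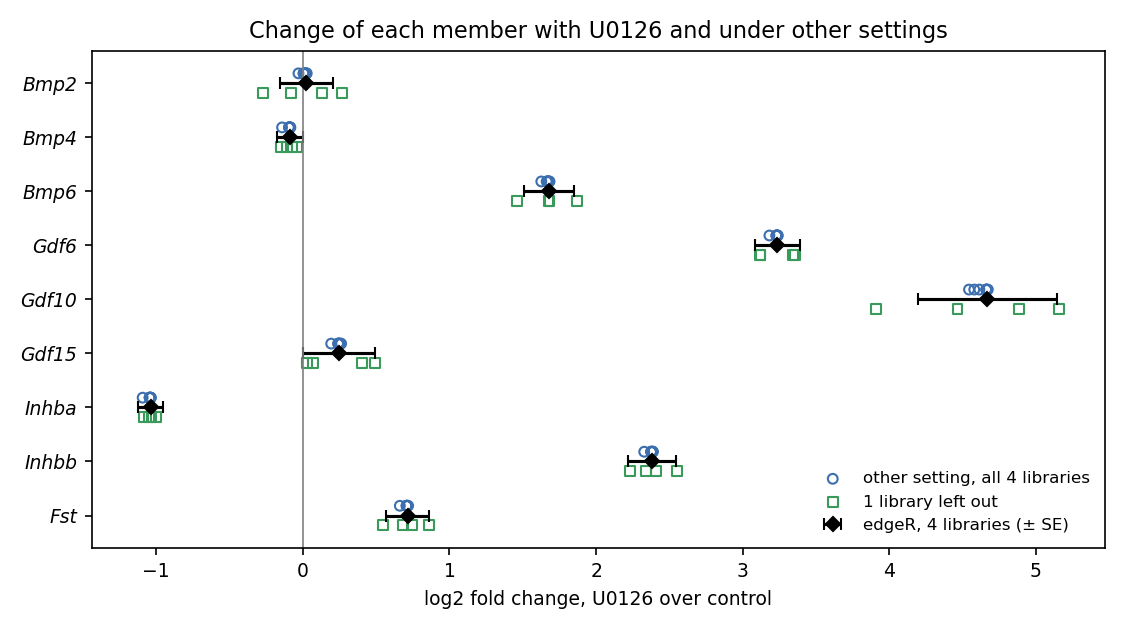
Log2 fold change of the 9 tested members, U0126 over control: black diamonds with bars give the edgeR estimate ± SE from 4 libraries, blue circles the 7 other settings with all 4 libraries, green squares the 4 fits that leave out 1 library. Gdf10 ranges from 3.91 to 5.16 with a library left out, while Inhba stays between -1.09 and -0.999 under the 11 settings.

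The activin subunit genes moved in opposite directions. Inhba, whose product forms activin A, stood at 133 and 132 CPM in the controls and at 62.8 and 66.3 CPM with U0126. It fell 2.05-fold (log2 fold change -1.04 ± 0.09 SE, edgeR adjusted p = 4.83e-04), with both replicates of each group close together. Inhbb, whose product forms activin B, was at 3.15 and 3.93 CPM in the controls and at 19 and 18 CPM with U0126. It rose 5.21-fold (log2 fold change 2.38 ± 0.17 SE, edgeR adjusted p = 2.49e-04). Inhba lies on chromosome 17 from 51898217 to 51912496 and Inhbb on chromosome 13 from 35436532 to 35442222, both on the minus strand.

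Fst, the secreted antagonist that binds activins and blocks their access to receptors, rose 1.64-fold. It was at 12.2 and 11.7 CPM in the controls and at 17.6 and 21.7 CPM with U0126 (log2 fold change 0.72 ± 0.15 SE, edgeR adjusted p = 0.0157). Both U0126 libraries exceeded both controls. Fst was the one member whose call was lost when either control was left out. The log2 fold change was then 0.75 without control replicate 1 and 0.68 without control replicate 2. In both of these fits fewer genes were also called over the whole table. Fst lies on chromosome 2 from 46538700 to 46544457 on the minus strand.

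Levels of different genes were compared on the deposited TPM scale, which corrects for length. The Inhba level was 51.8 and 41.1 times that of Inhbb in the 2 controls and 4.04 and 4.50 times that of Inhbb with U0126. Inhbb thus made up 1.89% and 2.38% of the summed subunit TPM in the controls and 19.8% and 18.2% with U0126. The sum of both subunits was 93.7 and 96.7 TPM in the controls and 52.4 and 54.9 TPM with U0126. Divided by the TPM of Fst, this sum gave 4.76 and 4.94 in the controls and 1.90 and 1.60 with U0126. The ratio was 2.78-fold lower with U0126, a log2 difference of -1.48. The SDs of the log2 ratio in the 2 groups, combined as the root of their summed squares, came to 0.18. The replicates lay further apart with U0126 than in the controls. With 2 libraries a group no permutation test could reach the threshold, and none was made. The ratio leaves out Fstl3, a follistatin relative that also binds activins. The mean level of Fstl3 over the 4 libraries was 135 TPM, against 25.3 TPM for Fst.

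**Figure D3:**
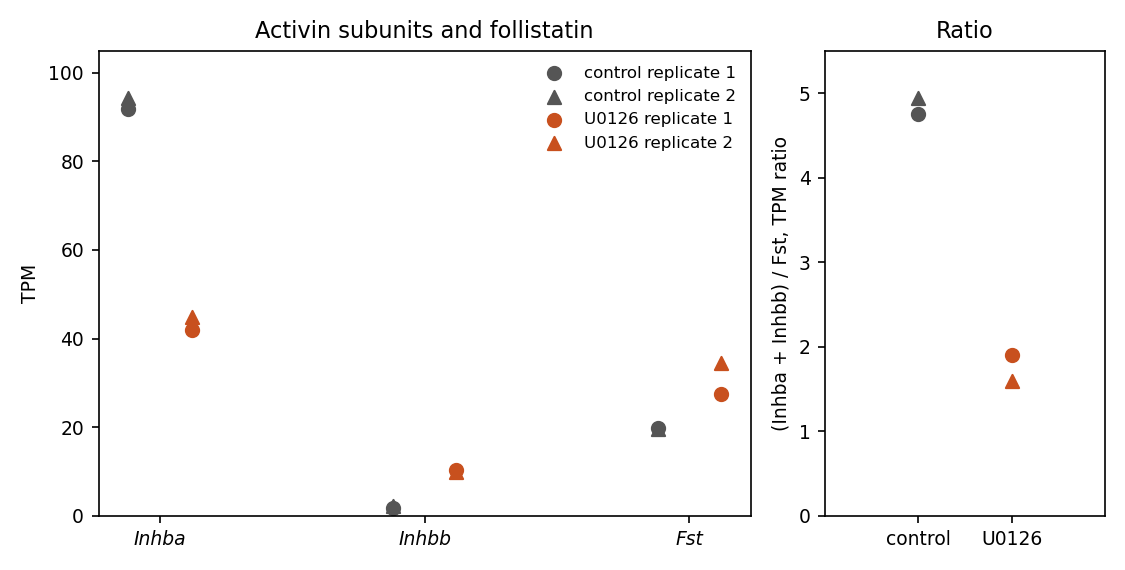
Left, TPM of Inhba, Inhbb and Fst in each library; right, the summed TPM of Inhba and Inhbb divided by the TPM of Fst. Circles are replicate 1 and triangles replicate 2; the ratio lies at 4.76 and 4.94 in the controls and at 1.90 and 1.60 with U0126.

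The order of the members by TPM also differed between the groups. In the controls Bmp4 led at 145 ± 0.977 TPM (SD, n = 2), followed by Inhba at 93.1 ± 1.72, Fst at 19.6 ± 0.0861, Bmp2 at 15.3 ± 1.19, Bmp6 at 7.54 ± 0.150 and Gdf15 at 6.87 ± 1.38 TPM. Gdf6 at 2.11 ± 0.187, Inhbb at 2.03 ± 0.369, Gdf10 at 0.422 ± 0.0753 and Gdf5 at 0.137 ± 0.0448 TPM came last. The values of Bmp6 and Gdf15 overlapped there, as did those of Gdf6 and Inhbb, and the other neighbours were separate.

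With U0126, Bmp4 at 131 ± 6.46, Inhba at 43.5 ± 2.04 and Fst at 31 ± 4.86 TPM kept the first 3 places, separate from each other. Bmp6 at 23.2 ± 4.70, Gdf6 at 19.1 ± 2.04, Bmp2 at 14.9 ± 3.92, Gdf10 at 13.6 ± 7.86 and Inhbb at 10.2 ± 0.309 TPM followed, and each overlapped its next neighbour except Inhbb, which was separate from Gdf15 at 7.81 ± 1.29 TPM. Gdf5 was listed at 0. Over the 7 BMP and GDF genes the summed level was 179 and 176 TPM in the controls and 214 and 205 TPM with U0126. Bmp4 supplied 80.8% and 82.7% of that sum in the controls and 63.2% and 61.6% with U0126.

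The length behind the Gdf10 level was not constant. The ratio of count to TPM implies a gene length, which for Gdf10 was 0.997 of the first control in the second and 0.755 and 0.763 in the 2 U0126 libraries. For the 8 other tested members it stayed between 0.996 and 1.005. The mean TPM of Gdf10 was 32.1 times higher with U0126, while the fit on counts gave 25.4-fold. Gdf10 had 33 and 27 counts in the controls, so the length implied there rests on few reads.

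**Figure D4:**
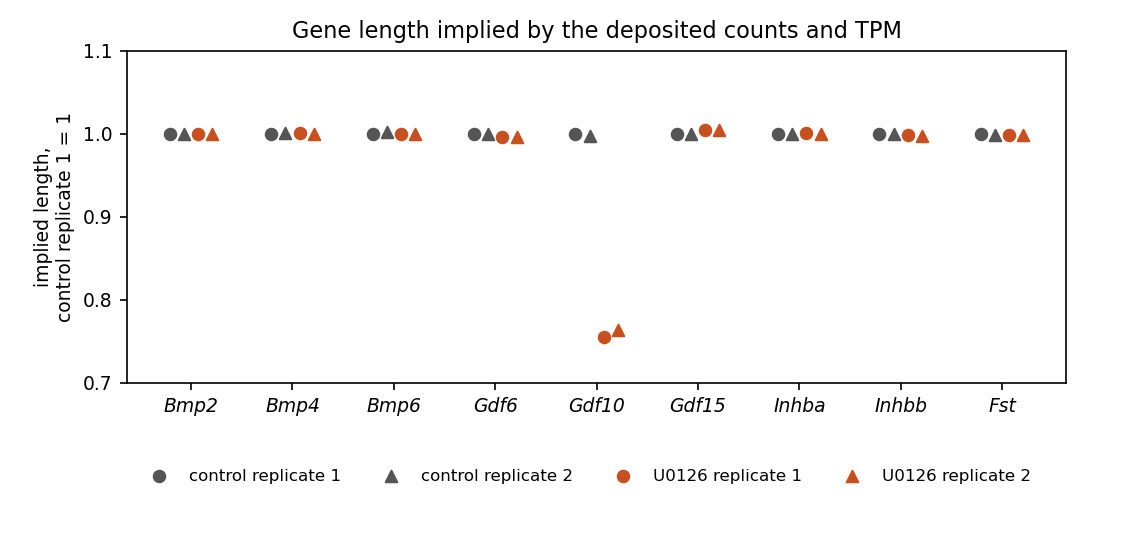
Gene length implied by the ratio of deposited count to TPM, relative to control replicate 1 and scaled by the median gene of each library; circles are replicate 1 and triangles replicate 2, grey is control and orange U0126. The axis starts at 0.7. The U0126 libraries of Gdf10 lie at 0.755 and 0.763, and the other members lie near 1.

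The other genes of the pathway were read from lists set by role. These lists were chosen with earlier results of these data known. Of 81 further genes, 55 were tested, and 7 were higher, 17 lower and 31 did not pass, with a median log2 fold change of -0.03. Beside the counts of each list below stand the shares over all tested genes, 8.41% higher and 11.5% lower. Among 21 other ligand genes of the superfamily, 17 were too low to test, 11 of them at 0 in every library, and 2 rose and 1 fell. Bmp3, the closest relative of Gdf10 and a ligand that opposes BMP signals in bone, was at 14.5 and 21.3 CPM in the controls and at 66.4 and 40.4 CPM with U0126. It rose 2.98-fold (edgeR adjusted p = 0.00726; 0.0552 without control replicate 1). Gdf1 rose 1.50-fold, from 12.1 ± 0.713 to 18.2 ± 0.103 CPM (SD, n = 2), but its locus overlaps Cers1 on the same strand, so reads of both genes may not have been separable. Gdf11, a relative of myostatin, fell 1.39-fold, from 76.9 ± 3.44 to 55.4 ± 8.64 CPM. The calls of Gdf1 and Gdf11 were lost without either control (edgeR adjusted p from 0.131 to 0.248; 8.12e-04 to 0.248 over all alternatives of both). The inhibin alpha subunit gene Inha, named after its values were seen, was at 4.54, 4.57, 5.17 and 4.12 CPM and did not pass.

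Receptor transcripts showed small differences. Of 8 tested type I and type II receptor genes, 7 did not pass, 0 rose and 1 fell. This was Acvr1, the type I receptor also called ALK2, at 47.7 and 47 CPM in the controls and 37.6 and 37 CPM with U0126, a 1.27-fold difference (edgeR adjusted p = 0.0397). The call was lost without either control (0.296 and 0.282), with no low-count filter (0.0510) and with the replicate block (0.0728). Bmpr1a, a type I receptor gene named after its values were seen, did not pass (log2 fold change 0.34, edgeR adjusted p = 0.0630). It was at 57.3 and 58.8 CPM in the controls and at 79.6 and 68 CPM with U0126. Of the 8 receptor genes, 3 had a log2 fold change above 0. Of 6 tested co-receptors and pseudoreceptors, 2 rose. Bambi, a pseudoreceptor without kinase activity that dampens signalling, rose 1.62-fold from 7.08 ± 0.350 to 11.5 ± 1.13 CPM, and Rgma, a BMP co-receptor, rose 1.45-fold from 20.1 ± 1.02 to 29.2 ± 3.08 CPM. Neither passed without control replicate 1 or 2.

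Among 14 tested secreted antagonists and modulators, 5 fell, 1 rose and 8 did not pass. The median log2 fold change of the 14 was 0.12, and 8 of them lay above 0, so the list did not fall as a whole. Grem1, gremlin, a BMP antagonist at high level in these cells, was at 4429 and 4040 CPM in the controls and at 2243 and 2933 CPM with U0126, a 1.64-fold fall. Htra1, a secreted serine protease, fell 1.73-fold from 1604 ± 31.7 to 929 ± 5.11 CPM. Bmper, a BMP-binding modulator, fell 1.76-fold, and Tll1, a tolloid-like protease of the kind that cuts chordin, 1.94-fold. Chrdl2, a chordin-like antagonist, had 29 and 44 counts in the controls and 0 in both U0126 libraries. With a floor of 3 counts in place of 0 over the U0126 group it was 21.7-fold lower, which leaves out the counting error of the controls. Fstl3, a follistatin relative that also binds activins, rose 1.36-fold from 124 ± 4.64 to 169 ± 1.71 CPM. Without control replicate 2, 1 of the fallen genes passed, and without control replicate 1, 4 did, while Fstl3 passed in neither case. Grem1 had an edgeR adjusted p of 0.0865 without control replicate 1 and 0.0505 without control replicate 2.

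Of 12 tested BMP target genes, 8 fell, 1 rose and 3 did not pass, and the median log2 fold change was -0.79. Over all tested genes 11.5% fell and 8.41% rose, and the median was 0.02. Id3, an inhibitor of helix-loop-helix factors and a direct BMP target, was at 604 and 536 CPM in the controls and at 306 and 291 CPM with U0126, a 1.91-fold fall (edgeR adjusted p = 0.00112). Its relatives Id1 and Id4 fell 1.92-fold and 1.95-fold. The homeobox genes Msx2 and Msx1 fell 7.29-fold and 2.16-fold, and Atoh8, a helix-loop-helix factor, 2.20-fold. Msx2 was low, at 7.87 and 6.18 CPM in the controls and 0.791 and 1.13 CPM with U0126. The target called higher was Bambi. The 3 that did not pass, named after their values were seen, were Hey1 (log2 fold change 1.32, edgeR adjusted p = 0.0524), Dlx5 (0.27, adjusted p = 0.504) and Id2 (-0.64, adjusted p = 0.107). Hey1 was at 1.21 and 1.15 CPM in the controls and at 3.93 and 1.96 CPM with U0126. The count of fallen targets was 4 with control replicate 1 left out, 6 with control replicate 2 left out, and 7 to 9 under the other alternatives, and the calls of Id1 and Atoh8 were lost without control replicate 1 (edgeR adjusted p = 0.0706 and 0.0943).

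Of 10 Smad and Smurf genes tested, 4 fell and 0 rose. Smad6 and Smad7, the inhibitory Smads, which are also counted among the targets, fell 1.40-fold and 1.28-fold. Smad2, an activin-responsive Smad, fell 1.30-fold from 54.8 ± 1.99 to 42.2 ± 0.670 CPM, and Smurf1, a ubiquitin ligase for Smads, fell 1.43-fold. Smad3, also activin-responsive and named after its values were seen, was at 81.1 ± 8.45 and 78.3 ± 8.91 CPM. It did not pass (log2 fold change -0.05, edgeR adjusted p = 0.799). None of the 10 passed without control replicate 1 or without control replicate 2, and 2 fell with the replicate block, under which Smad2 and Smad7 were at edgeR adjusted p = 0.0529 and 0.0593.

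Of 4 convertase genes, 2 rose and 2 did not pass. Furin, named after its values were seen, had the highest mean TPM of the 4 (70.3) and did not pass. It was at 177 and 184 CPM in the controls and at 147 and 171 CPM with U0126 (log2 fold change -0.18, edgeR adjusted p = 0.252). The 2 that rose were Pcsk6 and Pcsk5. Pcsk6, also called PACE4, was at 24.9 and 25.4 CPM in the controls and at 86.1 and 79.7 CPM with U0126, a 3.29-fold rise (edgeR adjusted p = 1.46e-04). Pcsk5 was at 4.54 and 4.96 CPM in the controls and at 37.6 and 24.7 CPM with U0126, a 6.55-fold rise (edgeR adjusted p = 4.30e-04). The groups did not overlap for either gene, which was so for 62.8% of all tested genes, and both calls remained under all 11 alternatives.

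**Figure D5:**
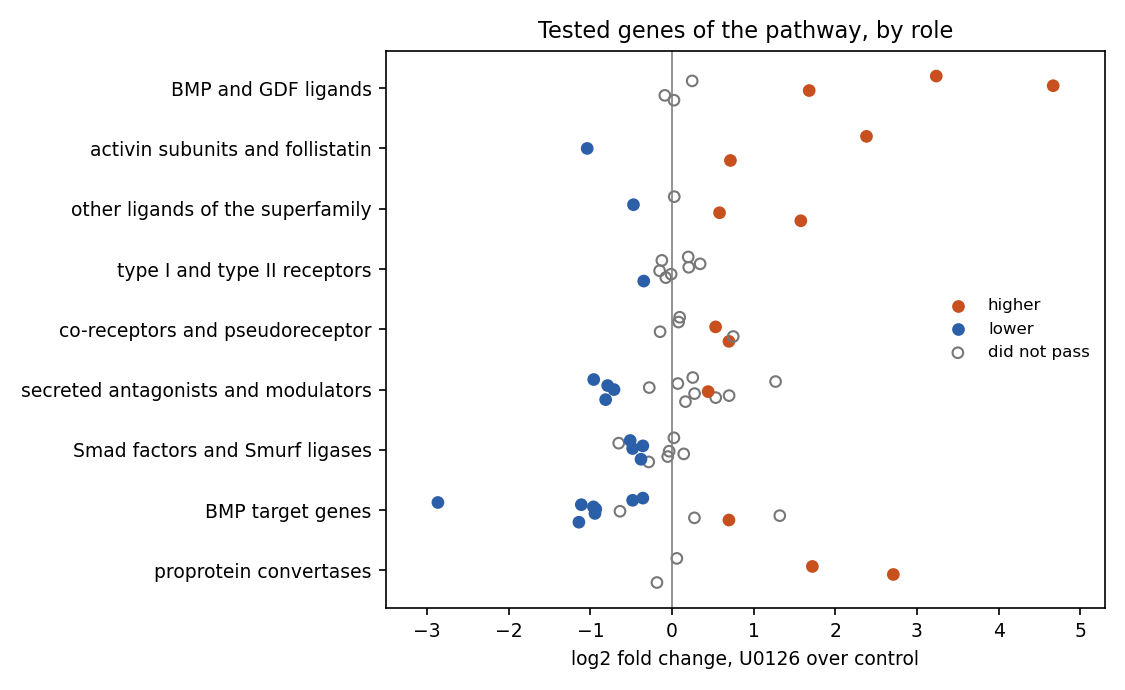
Log2 fold change, U0126 over control, of each tested gene by role, with vertical offsets only to separate points; orange and blue points passed edgeR's test as higher and lower, and open points did not. Most BMP target genes lie left of 0 (8 of 12 fell) and the receptors cluster near 0; Smad6, Smad7 and Bambi appear in 2 roles, and Chrdl2, at 0 counts with U0126, is not drawn.

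The profiles closest to the called member with the largest fitted change in each direction, Gdf10 and Inhba, were taken over the 4 libraries, by the root mean square distance between log2 CPM centred on each gene's mean. Among 8530 candidates, Gdf10 was nearest to Erg (0.37), Cxcl13 (0.40) and Igfbp3 (0.51), an ETS factor, a chemokine and an IGF-binding protein. Erg shared the gap between U0126 replicates, at 58.6 and 24.6 CPM. Inhba was nearest to Fez2, H2afz and Rfc4, each at a distance of 0.02, of which H2afz encodes a histone variant and Rfc4 a subunit of the replication clamp loader. With 4 libraries in 2 groups, such a likeness is mostly one of direction and size.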

How the data were processed

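RNA was extracted with Trizol and sequenced on standard Illumina libraries, per the labels' protocols. The submitters' processing notes name the build rn6. No aligner, counter, strand setting or annotation release is given in the sources used here. The authors deposited 1 table with a count, a TPM and an FPKM column per library, per the file headers. Deposited counts are whole numbers, not normalized. Deposited TPM served for levels between genes and FPKM for a check of 1 ratio. Columns were matched to samples through the sample descriptions.

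Of 32623 genes, 14023 passed filterByExpr (edgeR 4.0.16, R 4.3.3; minimum count 10, minimum total 15). Counts were scaled by TMM and tested with glmQLFit and glmQLFTest, two-sided, group only, adjusted over all tested genes. The SE is the absolute log2 fold change over the square root of F, with a prior count of 0.125. Folds in the text are fitted unless CPM or TPM is named. Replicates of a group differed by more than sampling noise (chi-square per degree of freedom 15.5 and 46.2). The fit was tested on simulated data. Alternatives used DESeq2 1.42.0, limma 3.58.1, other scaling and filters, a replicate block and leaving out each library.

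The members and lists were chosen with earlier results of these data known. Named genes were all members, up to 6 called genes of each pathway list with the smallest adjusted p, and the 3 nearest profiles (mean log2 CPM of at least 3) of 2 members. No list was given a set test. Promoter windows came from RefSeq, matched by symbol.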

Additional observations from a re-analysis of the deposited data

How the results depend on the processing

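Bmp6, Gdf6, Gdf10, Inhba and Inhbb passed the test in the same direction under all 11 alternatives, and Fst in 9. Members called higher numbered 4 to 5 with a library left out and 5 otherwise, and 1 was lower throughout. Bmp2, which did not pass, was at -0.030 with library totals alone and between -0.27 and 0.26 with a library left out, reversing in 3 alternatives. Leaving out a library moved the number of genes called from 2792 to between 899 and 4644, and the cause was not tested. It gave 0 to 2 other ligands higher and 0 to 1 lower, 0 to 2 receptors higher and 0 to 1 lower, 0 to 2 co-receptors higher, 0 to 3 antagonists higher and 1 to 6 lower, 0 to 6 Smad and Smurf genes lower, 0 to 2 targets higher and 4 to 9 lower, and 0 to 1 convertases lower. Receptors called lower fell to 0 with no low-count filter. Antagonists called higher were 2 with a mean CPM of at least 1 and 3 with DESeq2, which also gave 2 targets higher. The samples share only a replicate number: same-numbered deviations from the group means correlated at -0.03. With the replicate block 2371 genes were called, 0 receptors and 2 Smad and Smurf genes were lower, and 2 antagonists were higher; no member changed its call. The log2 difference of the subunit to follistatin ratio lay between -1.60 and -1.35 with a library left out and was -1.42 on CPM. Summing rows of a repeated symbol was not needed, since no member had more than 1. Where 1 library was left in a group, it was assumed to vary like the other group. Gdf5 at up to 6 counts and Gdf10 at 27 and 33 control counts are limited by depth.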

Other observations

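Most genes with enough counts kept their implied length. Of 11525 genes with at least 50 counts in every library, 82.9% had an implied length within 1% of control replicate 1 throughout, and 55, or 0.477%, had a mean implied length at least 20% lower or higher with U0126. Gdf10, which was below 50 counts in the controls and is therefore not among the 11525, was at 76% of its control length; the spread of implied length among genes at its count level was not computed. Whether other transcripts of the gene were counted with U0126 was not tested.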
